A study of Homo sapiens with 12 samples.

Results

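The miR-17-92 cluster is a group of 6 hairpins that are cut from 1 primary transcript, that of the host gene MIR17HG. Its members here were mature arms of these hairpins, under the names that the count files give them, hsa-mir-17-5p, hsa-mir-17-3p, hsa-mir-18a-5p, hsa-mir-19a-3p, hsa-mir-20a-5p, hsa-mir-20a-3p, hsa-mir-19b-1-5p, hsa-mir-19b-3p, hsa-mir-92a-1-5p and hsa-mir-92a-3p, written below as miR-17-5p and so on. These were 10 of the 1733 miRNAs with a count in any library and were chosen by name rather than by a threshold on their values. The other arms of the hairpins, miR-18a-3p and miR-19a-5p, are not among them. Small RNA libraries had been made from AsPC-1 and PANC-1, established human cell lines of pancreatic ductal adenocarcinoma (PDAC), with 3 control and 3 MYEOV knockdown libraries for each line. MYEOV is a gene overexpressed in several cancers, which the study depleted with siRNA to ask which miRNAs depend on it. The labels give RNA preparation at 48 hours after transfection and call the controls untreated wild type, whereas the study's methods describe a negative-control siRNA and an earlier harvest. The study's methods name more than 1 siRNA against MYEOV, and no source used here says which one a knockdown library received, so the spread between knockdown libraries may hold differences between siRNAs. The methods state for the study in general that experiments were repeated independently, but no source used here says of these libraries whether the 3 of a group came from separate cultures, so p-values measure the spread between these libraries, which may be technical. MYEOV mRNA cannot be seen in small RNA libraries, and the depth of the knockdown was therefore not checked here.

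A miRNA hairpin is cut by Drosha and Dicer to a duplex of a 5p and a 3p arm, of which usually 1 is loaded into an Argonaute protein as the guide and the other is degraded. The guide binds mRNAs mainly through its seed, the bases close to its 5′ end. The miR-17-92 cluster is a transcriptional target of MYC and is known as an oncogenic cluster, with CDKN1A, E2F1 and BCL2L11 among the best studied targets of its arms.

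The cluster occupied 787 bases of chromosome 13 (GRCh37, the build the submitters mapped to, plus strand, chr13:92002859-92003645) inside MIR17HG, which is annotated at chr13:91999940-92049846. MIR17HG is a non-coding gene with 16 annotated transcripts. For 5 of the hairpins an exon of 3 of these transcripts overlapped the hairpin, and for MIR92A1 an exon of 5 transcripts did. All 10 arms were matched by name to RefSeq sequences, and their positions were found by exact match of the hairpins to the genome. The mature sequences are shown because they define which arms share a seed and how alike they are, with the seed (bases 2 to 8) in capitals. The main arms, meaning the more abundant arm of each hairpin, were these.
miR-17-5p: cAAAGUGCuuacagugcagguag
miR-20a-5p: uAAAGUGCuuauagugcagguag
miR-18a-5p: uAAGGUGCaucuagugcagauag
miR-19a-3p: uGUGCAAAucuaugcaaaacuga
miR-19b-3p: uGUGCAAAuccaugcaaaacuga
miR-92a-3p: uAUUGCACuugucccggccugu

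The minor arms among the members, the less abundant partners of 4 of these, had seeds of their own.
miR-17-3p: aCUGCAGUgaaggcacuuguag
miR-20a-3p: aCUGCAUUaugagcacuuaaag
miR-19b-1-5p: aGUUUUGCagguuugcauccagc
miR-92a-1-5p: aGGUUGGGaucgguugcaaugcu

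The seeds placed the main arms in 4 families, with miR-17-5p and miR-20a-5p in one, miR-18a-5p in another, both miR-19 arms in the third and miR-92a-3p in the last. Across their 23 bases miR-17-5p and miR-20a-5p differed by C1U and C12U (the base of miR-17-5p, the position counted from 1 at the 5′ end, then the base of miR-20a-5p). The arm miR-106a-5p of the paralogous cluster on chromosome X differed from miR-17-5p by C1A alone. MiR-19a-3p and miR-19b-3p differed by U11C. MiR-19b-3p and miR-92a-3p are each encoded by 2 hairpins, of which the second lies on chromosome X, and their counts cannot be divided between the loci. The 5p arms of those second hairpins were almost without reads, miR-19b-2-5p at 0 to 1 and miR-92a-2-5p at 0 to 3 reads per library. Few reads of a minor arm do not show how many main-arm reads a locus gave. MiR-363-3p, a main arm of the same cluster on chromosome X, had 907 to 1118 reads in PANC-1 controls and no entry in AsPC-1. The part of the second loci in the levels and ratios below was not tested. The hairpins of the pair of arms that moved most after knockdown in AsPC-1 are shown with both arms in capitals.
MIR20A: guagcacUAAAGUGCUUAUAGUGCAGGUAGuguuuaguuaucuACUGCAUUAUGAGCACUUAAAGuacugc
MIR92A1: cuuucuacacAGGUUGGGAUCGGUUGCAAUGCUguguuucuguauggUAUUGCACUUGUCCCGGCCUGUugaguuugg

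Library totals were 3805084 to 7311783 reads, and 1014 to 1144 miRNAs were listed per library. Levels below are CPM, reads of an arm scaled to the size of its library with TMM factors computed within a line, unless the 2 lines are compared. Each read was counted once for an arm of 22 to 23 bases, so CPM need no division by length, although ligation bias between sequences was not measured. AsPC-1 control replicate 1 stood apart from the other control libraries of its line: chi-square per degree of freedom over miRNAs was 224 and 183 against replicates 2 and 3, and 22.1 between the latter. Markers were summed in CPM without TMM factors. The miR-200 family, which marks epithelial cells, summed to 48678 to 52667 CPM in AsPC-1 controls and to 249.9 to 276 CPM in those of PANC-1 (5 of 5 markers listed in both). The 3 muscle markers summed to 0.684 to 1.54 CPM in the former and 127 to 140.9 CPM in the latter, with no entry for miR-206 in any library. The 3 acinar markers summed to at most 0.509 CPM in any library.

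In the control cells all 10 arms were higher in AsPC-1 than in PANC-1, and miR-20a-5p, miR-92a-3p and miR-17-5p held most reads of the cluster. These gave 46.9%, 26.8% and 22.7% of its reads in AsPC-1 controls and 36.5%, 37.3% and 21.7% in those of PANC-1 (means, n = 3). The cluster took 3.37% to 4.70% of all miRNA reads in the former and 0.930% to 1.20% in the latter. Levels of controls are given in CPM with TMM factors computed over the 6 control libraries. MiR-20a-5p, a repressor of cell-cycle inhibitors that shares its seed with miR-17-5p, stood at 25258, 17423 and 17964 CPM in AsPC-1 and at 3963, 3183 and 3104 CPM in PANC-1. MiR-17-5p stood at 12818, 8239 and 8433 CPM in AsPC-1 and at 2370, 1942 and 1795 CPM in PANC-1. The lowest AsPC-1 library exceeded the highest PANC-1 library for both arms. MiR-92a-3p, known for its part in blood vessel growth, was even across AsPC-1 libraries at 11474, 11382 and 11011 CPM and stood at 3439, 3647 and 3323 CPM in PANC-1.

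In AsPC-1 controls the order of mean levels was miR-20a-5p at 20214.5 CPM, miR-92a-3p at 11289, miR-17-5p at 9830, miR-19b-3p at 859, miR-19a-3p at 354, miR-18a-5p at 238, miR-92a-1-5p at 93.7, miR-17-3p at 34.2, miR-20a-3p at 14.2 and miR-19b-1-5p at 6.10 CPM. The libraries of neighbours in this order overlapped for miR-92a-3p with miR-17-5p and for miR-19a-3p with miR-18a-5p. In PANC-1 controls miR-92a-3p came first at 3469 CPM with miR-20a-5p at 3417, and these overlapped. The other arms kept the order of AsPC-1, from miR-17-5p at 2036 CPM through miR-19b-3p at 185, miR-19a-3p at 116, miR-18a-5p at 59.9, miR-92a-1-5p at 32.7 and miR-17-3p at 10.3 to miR-20a-3p at 6.56 and miR-19b-1-5p at 2.85 CPM, of which the last 2 overlapped. In each line miR-17-5p exceeded the next arm, miR-19b-3p, by a factor of 11.4 in AsPC-1 controls and 10.99 in those of PANC-1.

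**Figure D1:**
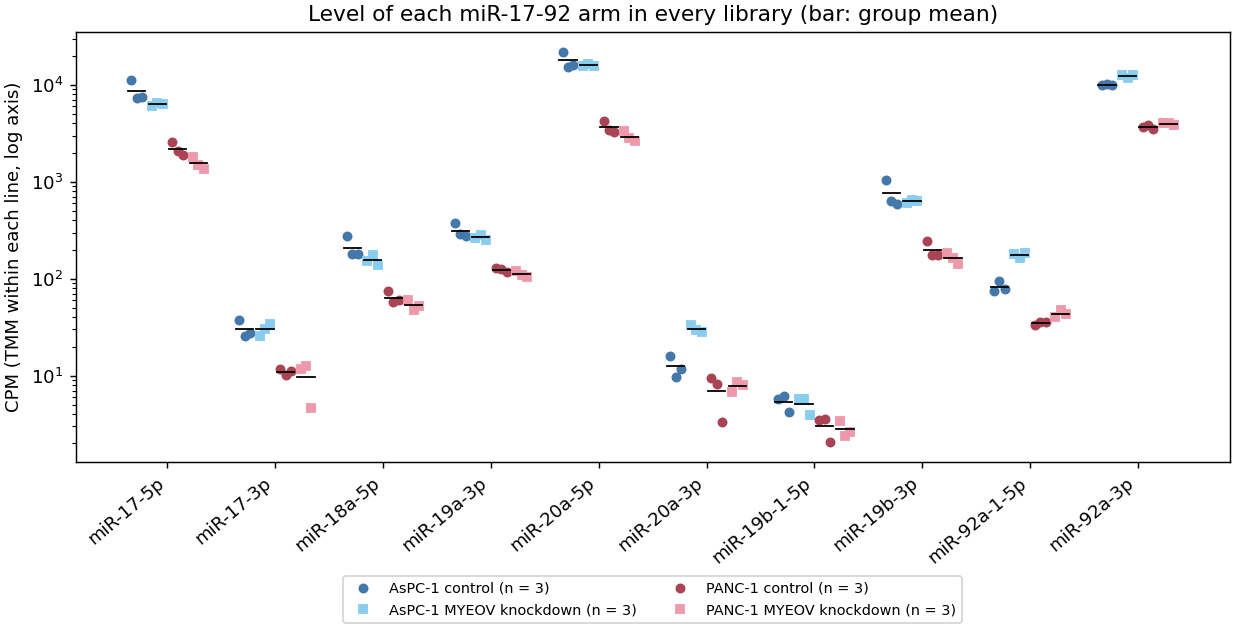
Level of each arm in every library in CPM (log axis, TMM within each line) for the 4 groups of 3 libraries, with a bar at the group mean. In AsPC-1 the knockdown libraries of miR-20a-3p (28.2 to 33.4 CPM) and miR-92a-1-5p (163 to 184 CPM) sit above all control libraries, and every arm is lower in PANC-1 controls than in AsPC-1 controls.

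Between the lines, 10 of 10 arms passed the test as lower in PANC-1 (edgeR quasi-likelihood F test, Benjamini-Hochberg adjusted over 627 miRNAs), and the libraries of the lines did not overlap for any of them. The background was high, since 82.8% of all miRNAs tested passed, 46.7% as higher and 36% as lower in PANC-1, and 82.1% did not overlap, 46.6% as higher and 35.6% as lower. The median log2 fold change (LFC) was -1.72 over the arms and 0.27 over all miRNAs. The largest difference among the arms was that of miR-20a-5p (LFC -2.56 ± 0.15 SE, 5.92-fold lower in PANC-1), followed by miR-17-5p (LFC -2.27 ± 0.16 SE). The LFCs of the 6 main arms were -1.61 to -2.56 and those of the 4 minor arms among the members -1.06 to -1.74, ranges that overlap, while the minor arm miR-18a-3p, which is no member, had -2.75. The smallest difference was that of miR-19b-1-5p, which had 8 to 19 reads in a PANC-1 control library. The split of all calls depended on the scaling, with 293 higher and 226 lower by TMM, 200 and 345 by upper-quartile factors and 335 and 174 by total count. Upper-quartile factors shifted the median LFC of all miRNAs by -0.92 and total count by 0.34, and the arms stayed at -0.72 or lower under every setting. Line and any batch of its libraries cannot be told apart.

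After MYEOV knockdown in AsPC-1, 2 of the 4 minor arms rose and miR-17-5p fell. MiR-20a-3p rose 2.43-fold and miR-92a-1-5p 2.11-fold, miR-92a-3p rose 1.23-fold, and miR-17-5p was 1.38-fold lower. These 4 of 10 arms passed the test, 3 as higher and 1 as lower, against 11.4% of 498 miRNAs tested, 7.03% as higher and 4.42% as lower. The groups did not overlap for 5 of 10 arms, 3 of them higher, against 30.5% of all miRNAs tested, 16.9% higher and 13.7% lower. Over all miRNAs 35 passed as higher and 22 as lower, or 25 and 45 in a fit over all 12 libraries. The median LFC was -0.12 over the arms and -0.0047 over all miRNAs. Among markers of other cell types, the 4 of white blood cells summed to 6.16 to 10.2 CPM in AsPC-1 control and 10.3 to 11.6 CPM in knockdown libraries, without TMM factors, with no entry for miR-223-3p in the controls. Of these miR-150-5p was tested (LFC 0.56, adjusted p = 0.12 by edgeR), and its groups did not overlap. The sums of the other marker lists overlapped between the groups in AsPC-1, and the part of these markers in the changes of the arms was not tested.

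MiR-20a-3p, the partner strand of miR-20a-5p, stood at 16.1, 9.76 and 11.7 CPM in AsPC-1 control libraries and at 33.4, 29.8 and 28.2 CPM in knockdown libraries, from 69 to 109 and 156 to 194 reads. The groups did not overlap, and the lowest knockdown library lay well above the highest control (LFC 1.28 ± 0.18 SE, adjusted p = 0.000232 by edgeR). Its partner miR-20a-5p stood at 21978, 15460.5 and 16166 CPM in control and at 15724, 16441 and 15744 CPM in knockdown libraries. Apart from control replicate 1, miR-20a-5p was level across the groups (LFC -0.16 ± 0.11 SE, adjusted p = 0.382 by edgeR), and without that library its LFC was 0.02.

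MiR-92a-1-5p, the partner strand of miR-92a-3p, stood at 74.7, 95.4 and 79.2 CPM in AsPC-1 control libraries and at 178, 163 and 184 CPM in knockdown libraries. The groups were far apart (LFC 1.07 ± 0.11 SE, adjusted p = 2.63e-05 by edgeR), and of all 498 miRNAs this arm had the smallest p. MiR-92a-3p itself stood at 9984, 10101 and 9910 CPM in control and at 12599, 11649 and 12770.0 CPM in knockdown libraries (LFC 0.30 ± 0.07 SE, adjusted p = 0.0146 by edgeR). The 3 control libraries of miR-92a-3p lay close together, all under the knockdown libraries. This call was lost without knockdown replicate 1 (adjusted p = 0.105 by edgeR), without knockdown replicate 3 (0.0929) and in a fit over all 12 libraries (0.148).

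MiR-17-5p, which represses CDKN1A and the TGF-beta receptor TGFBR2, stood at 11153, 7311 and 7590 CPM in AsPC-1 control libraries and at 5990.1, 6521 and 6369 CPM in knockdown libraries. All knockdown libraries were lower than all controls (LFC -0.46 ± 0.13 SE, adjusted p = 0.0259 by edgeR). Control replicate 1 set the size of the fall: without it the LFC was -0.24, with an adjusted p of 0.00175 by edgeR. The call was lost without knockdown replicate 1 (adjusted p = 0.103 by edgeR), without knockdown replicate 3 (0.0768) and with upper-quartile factors (0.0565). MiR-17-3p, its partner strand, stood at 37.3, 25.9 and 27.5 CPM in control and at 25.5, 30.6 and 33.8 CPM in knockdown libraries, and the groups overlapped (LFC -0.01 ± 0.16 SE).

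A further 4 arms did not pass in AsPC-1 by edgeR with the filter and TMM. MiR-18a-5p, which shares all but 1 base of its seed with miR-17-5p, stood at 274, 179 and 178 CPM in control and at 152, 175 and 140.2 CPM in knockdown libraries. Its groups did not overlap, but the nearest libraries of the groups nearly touched (LFC -0.43, adjusted p = 0.069 by edgeR). Without control replicate 1 the LFC was -0.19 (adjusted p = 0.142 by edgeR). It passed by the DESeq2 Wald test (adjusted p = 0.0318), and by edgeR without a filter (0.00251) and in a fit over all 12 libraries (0.00964). The miR-19 arms had LFCs of -0.23 (miR-19a-3p) and -0.27 (miR-19b-3p), with adjusted p-values of 0.211 and 0.297 by edgeR. Both leaned on control replicate 1, where miR-19b-3p stood at 1039 CPM against 639 and 596 CPM in the other controls and 610.1 to 646 CPM in knockdown libraries. Without that library their LFCs were -0.07 and 0.03. MiR-19b-1-5p, at 22 to 44 reads per library, had an LFC of -0.07.

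After MYEOV knockdown in PANC-1, the 2 arms with the miR-17 seed passed the test as lower and no arm passed as higher. MiR-17-5p was 1.41-fold and miR-20a-5p 1.25-fold lower. These 2 of 10 arms were near the share over all 551 miRNAs tested, of which 22% passed, 12.7% as higher and 9.26% as lower. The median LFC was -0.18 over the arms and 0.03 over all miRNAs. Over all miRNAs the split was 70 higher and 51 lower by TMM, 26 and 117 by total count, 65 and 29 by upper-quartile factors, and 42 and 25 in a fit over all 12 libraries. Total count shifted the median LFC of all miRNAs by -0.15. Among markers of other cell types, miR-429 of the miR-200 family was lower in PANC-1 knockdown libraries (LFC -0.43, adjusted p = 0.0403 by edgeR; 1 of 4 epithelial markers tested, with LFCs of -0.05, 0.01 and 0.07 for miR-200a-3p, miR-200b-3p and miR-200c-3p) and the muscle miRNA miR-1-3p was higher (LFC 0.36, adjusted p = 0.0174 by edgeR; 1 of 2 tested). The epithelial markers summed to 249.9 to 276 CPM in control and 212 to 250.7 CPM in knockdown libraries and the muscle markers to 127 to 140.9 and 136 to 177 CPM, without TMM factors. The erythroid miRNA miR-486-5p stood at 420.3 to 443 CPM in control and 462 to 576 CPM in knockdown libraries, with TMM factors (LFC 0.22, adjusted p = 0.0812 by edgeR), while the sums of the 3 erythroid markers overlapped. Without overlap, the liver miRNA miR-122-5p stood at 2.38 to 3.42 and 3.56 to 5.27 CPM (LFC 0.62, adjusted p = 0.164 by edgeR) and the 3 acinar markers at 0 to 0.198 and 0.203 to 0.509 CPM, without TMM factors, and the part of all these markers in the changes of the arms was not tested. Each acinar marker had at most 1 read in a PANC-1 library.

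MiR-17-5p stood at 2557, 2071 and 1911 CPM in PANC-1 control libraries and at 1803, 1478 and 1372 CPM in knockdown libraries. The groups did not overlap (LFC -0.49 ± 0.10 SE, adjusted p = 0.00068 by edgeR), and the arm passed whichever library was left out. MiR-20a-5p stood at 4276, 3394 and 3304 CPM in control and at 3310.5, 2848 and 2638 CPM in knockdown libraries. Here the highest knockdown library exceeded the lowest control by a few CPM (LFC -0.32 ± 0.10 SE, adjusted p = 0.018 by edgeR). The call of miR-20a-5p was lost without control replicate 1 (LFC -0.21, adjusted p = 0.0616 by edgeR), knockdown replicate 2 (0.087) or knockdown replicate 3 (0.179), with upper-quartile factors (0.095), and in a fit over all 12 libraries (0.0934).

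MiR-92a-1-5p stood at 33.7, 35.5 and 35.7 CPM in PANC-1 control libraries and at 40.3, 47.9 and 43.2 CPM in knockdown libraries. All knockdown libraries were higher, yet the arm missed the threshold (LFC 0.32 ± 0.13 SE, adjusted p = 0.0707 by edgeR), and by total count its LFC was 0.18 (adjusted p = 0.31 by edgeR). It was 1 of 2 arms without overlap, the other being miR-17-5p, against 36.7% of all miRNAs tested, 19.6% higher and 17.1% lower. MiR-92a-3p stood at 3710.4, 3889 and 3537 CPM in control and at 4084, 4040 and 3871 CPM in knockdown libraries (LFC 0.11 ± 0.08 SE). MiR-20a-3p stood at 9.46, 8.27 and 3.36 CPM in control and at 6.77, 8.68 and 7.93 CPM in knockdown libraries, from 13 to 44 reads, and the groups overlapped (LFC 0.11 ± 0.27 SE).

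The other arms had LFCs of -0.16 to -0.28 in PANC-1, and none passed by edgeR with TMM when the 6 libraries of the line were all kept and group was the only term. By total count miR-19b-3p (adjusted p = 0.0311 by edgeR), miR-18a-5p (0.04) and miR-19a-3p (0.0469) passed as lower. Of these miR-19b-3p came closest, at 243, 177 and 176 CPM in control and 187, 163 and 141.5 CPM in knockdown libraries (LFC -0.28, adjusted p = 0.0734 by edgeR). Without control replicate 1 its LFC was -0.12 (adjusted p = 0.389 by edgeR) and without knockdown replicate 3 it was -0.18 (0.404), while the arm passed without control replicate 2 (0.0185) or 3 (0.00596). MiR-18a-5p had an LFC of -0.25, miR-19a-3p of -0.16, miR-17-3p of -0.21 and miR-19b-1-5p of -0.16. The LFC of miR-18a-5p was -0.14 without control replicate 1, that of miR-19b-1-5p was -0.03 without control replicate 2, and that of miR-17-3p turned to 0.15 without knockdown replicate 3. In both lines 5 of the 6 main arms had an LFC under 0 and miR-92a-3p one over 0 under each scaling, except that by total count miR-92a-3p had an LFC of -0.04 in PANC-1. Over all miRNAs 251 of 498 in AsPC-1 and 255 of 551 in PANC-1 had an LFC under 0 by TMM. Without AsPC-1 control replicate 1 the LFCs of miR-20a-5p and miR-19b-3p in AsPC-1 turned to 0.02 and 0.03.

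**Figure D2:**
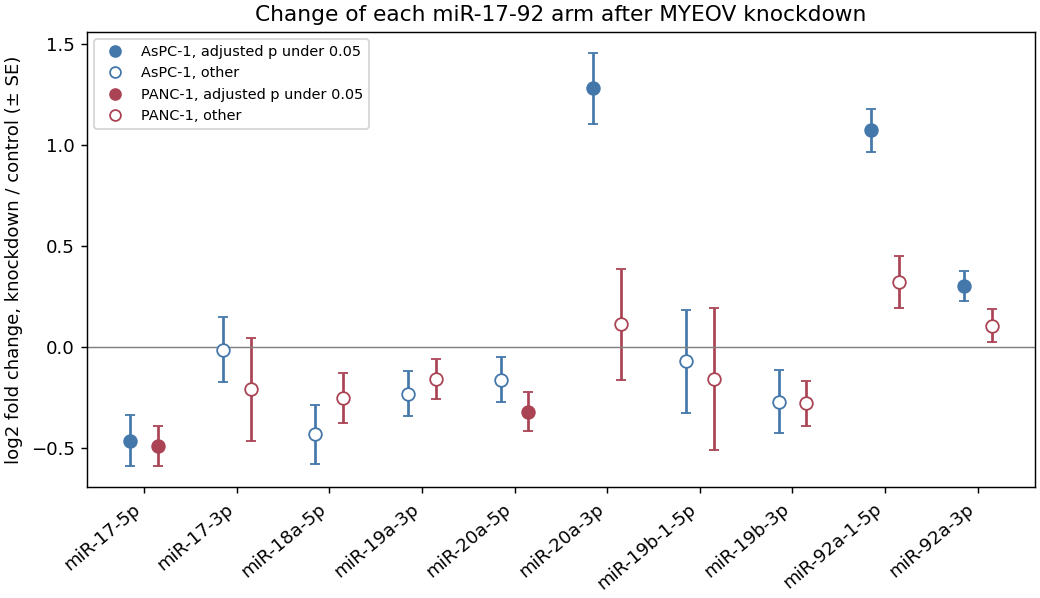
LFC of each arm (MYEOV knockdown against control) in the 2 lines, with SE bars from the fit on 3 against 3 libraries. Filled points passed an adjusted p of 0.05. MiR-20a-3p (1.28) and miR-92a-1-5p (1.07) stand out in AsPC-1, and miR-17-5p lies near the same value in both lines (-0.46 and -0.49), although in AsPC-1 it is -0.24 without control replicate 1 of that line.

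The difference between the lines was tested as an interaction over all 12 libraries, coded as the effect in AsPC-1 minus that in PANC-1. By edgeR, 0 of 10 arms passed, against 0.308% of 650 miRNAs tested, with 2 arms at an unadjusted p under 0.05, as were 74 of the 650 miRNAs. By DESeq2 1 arm passed, and 2 miRNAs in all. The arm that passed by DESeq2 was miR-92a-1-5p, whose difference was 0.65 ± 0.17 SE (adjusted p = 0.0564 by edgeR and 0.00343 by DESeq2). It also passed in the edgeR fit with DESeq2 size factors (adjusted p = 0.0131), total count (0.00701) and upper-quartile factors (0.0331), but not without a filter (0.109) or with 1 CPM in 3 libraries as the filter (0.0525). Without 1 library its adjusted p by edgeR was 0.0247 to 0.197, and it passed in 5 of 12 such fits. The difference of miR-20a-3p was 1.06 ± 0.35 SE (adjusted p = 0.124 by edgeR), and it passed without AsPC-1 control replicate 1 (0.00242) or PANC-1 control replicate 3 (0.00689). For miR-17-5p the difference was -0.08 ± 0.19 SE by TMM and 0.09 with DESeq2 size factors.

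The ratio of the arms of a hairpin is taken within a library and needs no scaling between libraries. It was expressed as reads of the main arm per read of the minor arm for 5 hairpins, with miR-18a-3p added as partner of miR-18a-5p. MiR-19a was left out because miR-19a-5p had at most 6 reads in a library. In AsPC-1 the ratio fell after knockdown for miR-20a, miR-92a-1, miR-18a and miR-17. These were 4 of 5 hairpins, against 15.4% of the 149 hairpins with both arms tested.

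For miR-20a the ratio was 1364, 1583 and 1376 in AsPC-1 control libraries and 470.3, 552 and 559 in knockdown libraries. The fall was 2.73-fold (log2 change -1.45 ± 0.13 SE, adjusted p = 4.55e-05 by edgeR), with the smallest p of the 149 hairpins. For miR-92a-1 the ratio was 134, 105.9 and 125 in control and 70.8, 71.5 and 69.4 in knockdown libraries (log2 change -0.78 ± 0.11 SE, adjusted p = 0.00136 by edgeR), with the next smallest p. The knockdown libraries of miR-92a-1 lay within a narrow band under all controls, and its main arm holds any reads of the second locus.

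For miR-18a the ratio was 3.79, 2.97 and 3.26 in AsPC-1 control and 2.17, 2.61 and 1.80 in knockdown libraries (log2 change -0.62 ± 0.17 SE, adjusted p = 0.0355 by edgeR). The arms of this hairpin were thus far closer to each other than those of any other, with miR-18a-3p at 390 to 488 reads in AsPC-1 controls. For miR-17 the ratio was 299, 282 and 275 in control and 235, 213 and 189 in knockdown libraries (log2 change -0.44 ± 0.13 SE, adjusted p = 0.0423 by edgeR). The call of miR-17 was lost without control replicate 2 (adjusted p = 0.0793 by edgeR), knockdown replicate 1 (0.0779), 2 (0.117) or 3 (0.188), and that of miR-18a without knockdown replicate 1 (0.152) or 3 (0.188). In these 4 hairpins no knockdown library reached the lowest control. With limma on the log2 ratios miR-20a and miR-92a-1 passed (adjusted p = 0.00294 and 0.0452), while miR-17 (0.0819) and miR-18a (0.081) did not. The ratio of miR-19b-1 overlapped between the groups, at 103 to 180.2 in control and 107 to 158 in knockdown libraries.

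In PANC-1 the ratio of miR-20a was 452, 411 and 982 in control and 489, 328 and 332 in knockdown libraries. The high control value came from the library with 13 reads of miR-20a-3p. By edgeR 0 of 5 hairpins passed in PANC-1, against 14.4% of 174 hairpins. At an unadjusted p under 0.05 there were 0 of the 5 and 52 of the 174. By limma 0 of the 174 hairpins passed. The log2 changes ran from -0.45 ± 0.26 SE for miR-20a to 0.01 ± 0.22 SE for miR-18a. Without control replicate 3, the library with 13 reads, the change for miR-20a was -0.21. The difference of the ratio changes between the lines, a test added after the data were seen, passed for 0 of 5 hairpins by edgeR, against 0.493% of 203 hairpins. At an unadjusted p under 0.05 there were 3 of the 5 and 14 of the 203, and by limma 0 of the 203 passed. That difference was -0.997 ± 0.31 SE for miR-20a and -0.56 ± 0.18 SE for miR-92a-1 (adjusted p = 0.192 for both by edgeR).

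Between the control cells the ratio passed for 4 of 5 hairpins, against 28.7% of 195. It was lower in PANC-1 for miR-20a (log2 difference -1.47 ± 0.26 SE, adjusted p = 0.00161 by edgeR), miR-19b-1 (-1.12 ± 0.32 SE) and miR-17 (-0.53 ± 0.17 SE), and higher for miR-18a (0.77 ± 0.20 SE). The ratio of miR-18a in PANC-1 controls was 7.04, 4.97 and 5.27, above all AsPC-1 controls. MiR-17 and miR-19b-1 lost their calls without AsPC-1 control replicate 1 (adjusted p = 0.0626 and 0.0616 by edgeR) and without PANC-1 control replicate 2 (0.111 and 0.165), and miR-17 also without any other library but PANC-1 control replicate 1. The ratio of miR-92a-1 was 99.1 to 110.2 in PANC-1 against 105.9 to 134 in AsPC-1, and its groups overlapped.

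**Figure D3:**
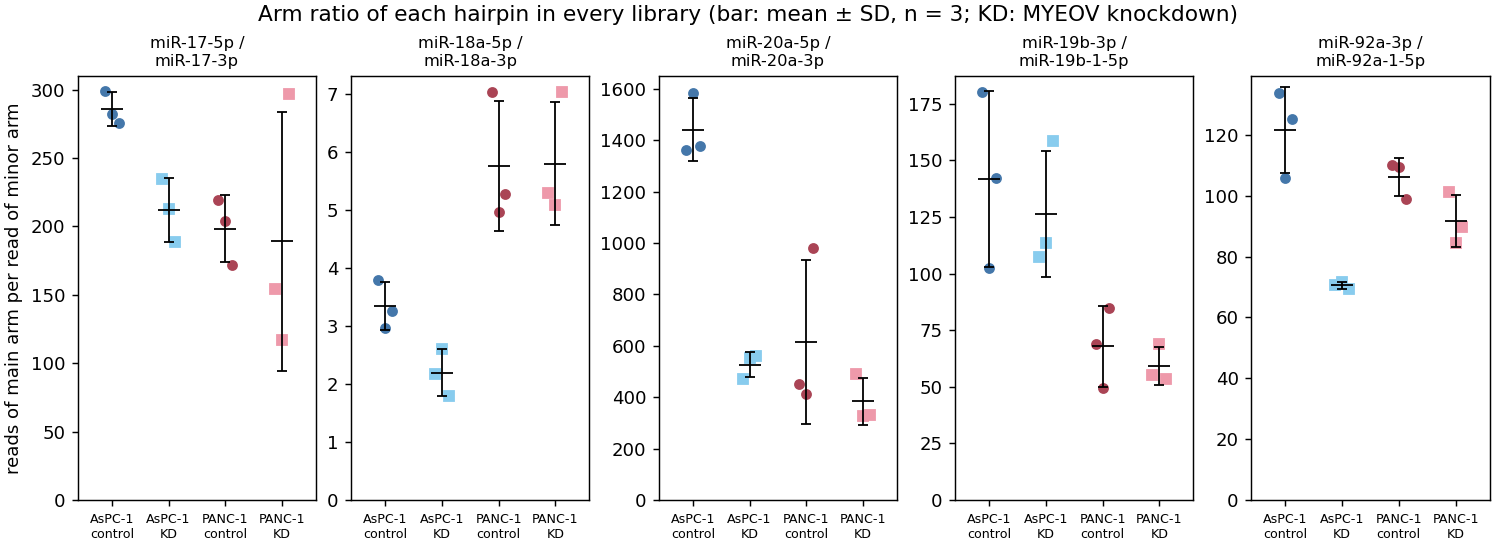
Reads of the main arm per read of the minor arm for 5 hairpins in every library, with the mean and SD of the 3 libraries of each group (KD, MYEOV knockdown; axes start at 0 and differ between panels). In AsPC-1 the miR-20a ratio goes from a mean of 1441 in control to 527 in knockdown libraries, and the miR-92a-1 ratio from 121.6 to 70.6.

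The composition of the cluster moved with these arms. Of the reads of the 10 arms in AsPC-1, miR-17-5p made up 22.7% ± 1.86 (SD, n = 3) in control and 17.5% ± 0.658 in knockdown libraries, and in PANC-1 21.7% ± 1.23 and 17.4% ± 1.14. The 4 minor arms together made up 0.298% to 0.402% of the cluster's reads in AsPC-1 control and 0.637% to 0.692% in knockdown libraries. In PANC-1 they made up 0.528% to 0.588% and 0.646% to 0.817%. The cluster as a whole took 3.57% ± 0.0911 of miRNA reads in AsPC-1 and 0.846% ± 0.0919 in PANC-1 knockdown libraries, against 3.83% ± 0.757 and 1.052% ± 0.134 in the controls (SD, n = 3). The groups overlapped in both lines. In AsPC-1 the higher mean of the controls rested on control replicate 1 at 4.70%, since the other controls, at 3.37% and 3.41%, lay below all knockdown libraries, at 3.48% to 3.66%.

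Arms with the same seed can bind the same sites, so the members were set against all listed miRNAs of their seed, as sums without a test. The miR-17 seed was carried by 7 listed miRNAs. Their summed level was 28981 to 41558 CPM in AsPC-1 control and 26979 to 28467 CPM in knockdown libraries, of which miR-17-5p and miR-20a-5p gave 78.9% ± 0.707 (SD, n = 3) in controls. In PANC-1 the sum was 10571 to 13414 CPM in control and 8207 to 10084 CPM in knockdown libraries, and the 2 members gave 50.0% ± 0.849 in controls. The knockdown libraries lay under the controls in both lines, though in AsPC-1 the nearest libraries of the groups nearly touched. There control replicate 1 gave the highest sum, and the other controls stood at 28981 and 30290 CPM. The miR-92 seed, carried by 5 listed miRNAs, summed to 17997 to 19001 CPM in AsPC-1 control and to 19952 to 21203 CPM in knockdown libraries. In PANC-1 it summed to 13233 to 13911 CPM in control and to 12188 to 13562 CPM in knockdown libraries, which overlapped. MiR-92a-3p gave 54.3% ± 1.16 of it in AsPC-1 controls and 27.3% ± 0.629 in PANC-1 controls. The miR-19 seed was carried by the 2 members alone and the miR-18 seed almost wholly by miR-18a-5p, with a mean of 99.1% in AsPC-1 controls and 99.4% in those of PANC-1.

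**Figure D4:**
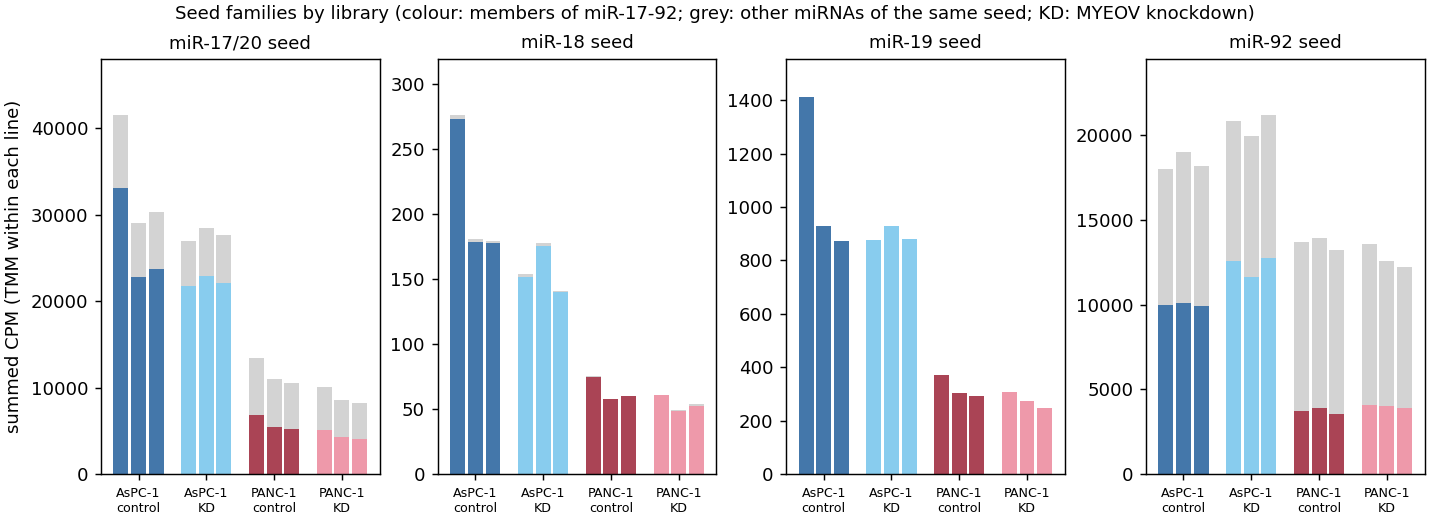
Summed CPM (TMM within each line) of all listed miRNAs with each of the 4 seeds, 1 bar per library, with the members of the cluster in colour and other miRNAs of the seed in grey (KD, MYEOV knockdown). Members give 78.9% of the miR-17/20 pool in AsPC-1 controls and 50.0% in PANC-1 controls.

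The paralogous cluster miR-106b-25, in an intron of MCM7, had 3 arms that passed in each line by edgeR with the filter and TMM. The share over all miRNAs tested was 11.4% for AsPC-1 and 22% for PANC-1. In AsPC-1 3 of its 6 arms passed, miR-93-5p (LFC -0.40 ± 0.11 SE) and miR-106b-5p (LFC -0.32 ± 0.09 SE) as lower and miR-25-5p (LFC 0.48 ± 0.09 SE) as higher. Without AsPC-1 control replicate 1 the LFC of miR-93-5p was -0.23 and that of miR-106b-5p was -0.22, and both still passed (adjusted p = 0.00229 and 0.0068 by edgeR). Both calls were lost without any 1 knockdown library of AsPC-1 (adjusted p = 0.0621 to 0.102 for miR-93-5p and 0.0832 to 0.139 for miR-106b-5p by edgeR). In PANC-1 the LFCs of these arms were -0.36, -0.42 and 0.45, and each passed, although miR-93-5p did not without knockdown replicate 3 (adjusted p = 0.0747 by edgeR). MiR-25-3p, which shares the seed of miR-92a-3p, passed in neither line with these settings (LFC 0.01 in AsPC-1, -0.19 in PANC-1). In PANC-1 it passed as lower by total count (LFC -0.33, adjusted p = 0.0116 by edgeR) and without knockdown replicate 1 (LFC -0.27, 0.0349). MiR-106b-3p had LFCs of -0.29 and -0.09 and did not pass with TMM. By total count it passed as lower in PANC-1 (LFC -0.23, adjusted p = 0.0411 by edgeR), and without control replicate 1 its LFC in AsPC-1 was 0.16. MiR-93-5p and miR-106b-5p carry the miR-17 seed, and miR-25-5p, named after its values were seen, is the minor arm of its hairpin, at 125 to 149.7 CPM in AsPC-1 controls. Of the 10 arms of miR-106a-363 on chromosome X, the filter kept 2 in AsPC-1 against 3 in PANC-1. Of these miR-20b-5p alone passed with TMM within a line, as lower in PANC-1 (LFC -0.62 ± 0.18 SE, adjusted p = 0.0157 by edgeR), a call lost without knockdown replicate 2 (0.0607) or 3 (0.196). By total count miR-106a-5p (LFC -0.59, adjusted p = 0.0391 by edgeR) and miR-363-3p (LFC -0.27, 0.0379) also passed as lower in PANC-1. In a fit over all 12 libraries miR-106a-5p passed as lower in AsPC-1 (LFC -0.67, adjusted p = 0.033 by edgeR). MiR-106a-5p had 42 to 134 reads in any library of either line. MiR-363-3p had no entry in any AsPC-1 library and had 756 to 1118 reads in PANC-1 libraries.

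Across the 12 libraries, with log2 CPM centred within each line, the miRNAs most like miR-17-5p outside the cluster were miR-93-5p (Pearson r = 0.995), miR-339-5p (0.98), miR-106b-5p (0.967), miR-107 (0.961) and miR-335-5p (0.96), of 649 compared. Within the cluster r was 0.964 for miR-20a-5p, 0.931 for miR-18a-5p, 0.928 for miR-19b-3p and 0.921 for miR-19a-3p. It was 0.587 for miR-17-3p, -0.27 for miR-20a-3p, -0.396 for miR-92a-3p and -0.749 for miR-92a-1-5p. Without AsPC-1 control replicate 1 these ran from 0.933 for miR-20a-5p to -0.656 for miR-92a-1-5p, and r was 0.991 for miR-93-5p. The points share libraries and depth, the knockdown difference is part of each value, and r is given as a description.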

How the data were processed

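The authors removed adapters, aligned the reads to hg19 by Bowtie without mismatches, selected those as long as a miRNA, and deposited raw counts per mature miRNA (its most abundant sequence and others sharing the 5′ end). Versions are not given in the sources used here. An unlisted miRNA was given a count of 0. Groups came from the labels, and no library was left out. All 10 arms passed the filter (filterByExpr, minimum count 10) in each comparison.

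Counts were tested with edgeR 4.0.16 in R 4.3.3 (TMM, quasi-likelihood F test, Benjamini-Hochberg over all miRNAs tested, threshold 0.05), per line, between controls and as an interaction. The SE is the LFC divided by the root of F. Arm ratios were tested in edgeR as arm by group with a library term, over all hairpins. All tests were two-sided. Alternatives used DESeq2 1.42.0 and limma 3.58.1 (pseudocount 0.5). Scripts were tested on simulated data. Named miRNAs are the 10 arms, up to 4 of the most abundant arms of each of 2 paralogous clusters (miR-25-5p was added outside this rule, after its values were seen), and the 5 miRNAs most like miR-17-5p; miR-18a-3p, miR-19a-5p, miR-19b-2-5p and miR-92a-2-5p are named as partner arms, and the markers of other cell types (miR-429, miR-200a-3p, miR-200b-3p, miR-200c-3p, miR-150-5p, miR-223-3p, miR-122-5p, miR-486-5p, miR-1-3p and miR-206) were named after their values were seen. Members and lists were chosen with earlier results of these data known. Sequences are RefSeq's (GRCh38.p14), placed on GRCh37 by exact match. Depths cover counting error only, and read counts are not molecules.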

Additional observations from a re-analysis of the deposited data

How the results depend on the processing

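The 10 arms passed as lower in PANC-1 controls under every alternative tried and whichever library was left out. Other counts of arms that passed moved. In AsPC-1 the count was 4. It was 3 with upper-quartile factors (miR-17-5p lost), 5 with the DESeq2 Wald test and without a filter (miR-18a-5p gained), and 2 with the replicate block (miR-17-5p at an adjusted p of 0.112 and miR-92a-3p at 0.0819 by edgeR lost); in a fit over all 12 libraries it was 4, with miR-18a-5p gained and miR-92a-3p lost. Without 1 library it was 2 to 4, with miR-17-5p and miR-92a-3p lost without knockdown replicate 1 or 3. In PANC-1 it was 2, and became 5 by total count (miR-18a-5p, miR-19a-3p and miR-19b-3p gained), 1 by upper-quartile factors (miR-20a-5p lost), 4 with the replicate block (miR-19b-3p and miR-92a-1-5p gained, adjusted p = 0.0181 and 0.0455 by edgeR), 1 in a fit over all 12 libraries (miR-20a-5p lost) and 1 to 3 without 1 library. For the difference between the lines it was 0, became 1 (miR-92a-1-5p) with DESeq2 size factors, total count, upper-quartile factors and the DESeq2 Wald test, and was 0 to 2 without 1 library. Hairpins whose arm ratio passed in AsPC-1 went from 4 to 2 with limma at either pseudocount and with the replicate block, and were 2 to 4 without 1 library. Between control cells they were 4, and 2 to 4 without 1 library. In PANC-1, and for the added difference between lines, they were 0 throughout. With 3 libraries a group an exact permutation test of 1 hairpin's ratio cannot go below p = 0.1, which miR-17, miR-18a, miR-20a and miR-92a-1 reached in AsPC-1. The cause of these changes was not tested.

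Replicate numbers were not taken to pair the libraries, since not every pair correlated at over 0.1, which does not show that no pairing exists. Deviations of same-numbered libraries correlated at -0.159, -0.126 and 0.123 in AsPC-1 and at 0.0521, 0.0293 and 0.14 in PANC-1. With the replicate block, all miRNAs that passed went from 57 to 29 in AsPC-1 and from 121 to 153 in PANC-1, and hairpins in AsPC-1 from 23 to 4. In AsPC-1 the block also ended the calls of the paralogous arms miR-93-5p (adjusted p = 0.105 by edgeR) and miR-106b-5p (0.122), read after the data were seen. In PANC-1 the paralogous arm miR-25-3p passed as lower with the block (adjusted p = 0.0398 by edgeR), also read after the data were seen. Over all miRNAs, counts in PANC-1 went from 121 to 67 in a fit over all 12 libraries, and those of the difference between lines from 2 to 4 by upper-quartile factors and 10 without a filter. Hairpins by limma went from 23 to 3 in AsPC-1 and from 25 to 0 in PANC-1. Without 1 library the counts were 24 to 102 in AsPC-1 (102 without control replicate 1), 55 to 129 in PANC-1, 1 to 25 for the difference, and for hairpins 5 to 38 in AsPC-1, 13 to 25 in PANC-1 and 32 to 64 between control cells.

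Some signs turned. In AsPC-1 miR-17-3p had an LFC of 0.0052 by upper-quartile factors, and in PANC-1 by total count miR-20a-3p had -0.037 and miR-92a-3p -0.036. The difference between the lines turned with DESeq2 size factors for miR-17-5p (0.092), miR-19b-1-5p (0.15) and miR-19b-3p (0.074), by the DESeq2 Wald test for the same arms (0.092, 0.15 and 0.072), by total count for miR-17-5p (0.15), miR-19a-3p (0.054), miR-19b-1-5p (0.22) and miR-19b-3p (0.13), and by upper-quartile factors for miR-19b-1-5p (0.034). The miR-18a ratio in PANC-1 turned with the replicate block (-0.004), and the added difference of the miR-19b-1 ratio with limma (0.022). Without 1 library, LFCs in AsPC-1 ran from -0.12 to 0.17 for miR-17-3p, -0.26 to 0.022 for miR-20a-5p, -0.22 to 0.082 for miR-19b-1-5p and -0.41 to 0.033 for miR-19b-3p, and in PANC-1 from -0.46 to 0.15 for miR-17-3p and -0.19 to 0.33 for miR-20a-3p. Differences between the lines ran from -0.24 to 0.16 for miR-17-5p, -0.23 to 0.41 for miR-17-3p, -0.090 to 0.25 for miR-20a-5p, -0.16 to 0.20 for miR-19b-1-5p and -0.26 to 0.22 for miR-19b-3p. Ratio changes ran from -0.40 to 0.043 for miR-19b-1 in AsPC-1, and in PANC-1 from -0.57 to 0.019 for miR-17 and -0.13 to 0.17 for miR-18a, and their differences from -0.46 to 0.13 for miR-17 and -0.27 to 0.19 for miR-19b-1. Depth limits miR-19b-1-5p and, in PANC-1, miR-20a-3p, at 8 to 44 reads per library.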
